A study of Mus musculus with 2 samples.

Results

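Integrin and laminin chains are the receptor and ligand genes through which heart cells hold their surrounding matrix, and 38 such genes were followed across the nuclei of mouse hearts. They comprise 27 integrin chains and 11 laminin chains among 32245 measured gene symbols. Within these families the genes were taken by symbol, and no measured value enters that rule. It takes every symbol starting with Itga or Itgb except the integrin-binding proteins and Itgbl1. It also takes every laminin α, β or γ chain symbol (Lama, Lamb or Lamc with a number). The gene set itself was chosen with earlier results of these data known. Of the 38, 35 reached 20 UMIs (unique molecular identifiers, which count captured RNA molecules) over both libraries in at least 1 of the 7 nuclei classes compared, and 12 did so in all 7.

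Nuclei came from cardiac tissue of male C57Bl6/J mice 3.5 months old and were profiled with a droplet kit that reads the 3′ end of RNA. The CF-KI library was Tcf21-MerCreMer;Nlrp3-A350V/A350V, and the Control library was Tcf21-MerCreMer;Nlrp3-WT/WT. Both groups carried the Cre driver and were injected with tamoxifen, which activates it. Tcf21 is a transcription factor gene of cardiac fibroblasts, Nlrp3 encodes the sensor of an inflammasome, and per the series record the altered allele is silent in cells without Cre. Each group had 1 library, and the number of animals in a library is not given in the sources used here. No test across replicates was therefore possible, and every difference is between these 2 libraries. The intervals are exact 95% intervals that cover counting error only.

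An integrin receptor joins an α chain to a β chain at the cell surface, links the matrix outside to the actin skeleton inside and signals in both directions. Itgb1 encodes the β1 chain, which pairs with most α chains, while Itgb2 is the β chain of leukocyte receptors. A laminin is a cross-shaped protein of the basement membrane built from an α, a β and a γ chain. Lama2 encodes the α2 chain around cardiac and skeletal muscle, Lama4 and Lama5 the α4 and α5 chains typical of vessels, and Lamc1 the γ1 chain shared by most laminins.

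Over 15077 barcodes the CF-KI library totalled 21603653 UMIs, and over 11257 barcodes the Control library totalled 18040776, with medians of 1115 and 1158 UMIs per barcode. After filtering, 9158 and 10339 nuclei were kept, and 24 of the kept barcode sequences occurred in both libraries. The libraries differed in quality. Mitochondrial RNA made up 20.8% of all CF-KI UMIs and 6.83% of Control UMIs, and the doublet caller removed 15.2% and 3% of barcodes against expected rates of 12.1% and 9.01%. Nlrp3 itself, the altered gene, had 4 UMIs in CF-KI fibroblast-like nuclei and 0 in those of Control. The count of 0 sets an upper limit of 0.735 CPM, which are UMIs scaled to the class's non-mitochondrial total. These reads do not tell the alleles apart. Classes carry the ending -like because they were named from marker RNA, and the chain genes took no part in the clustering. Free RNA, which enters droplets from broken cells, was estimated from marker RNA of other classes. In cardiomyocyte-like nuclei these were the markers of the other lists. In every other class they were the 8 cardiomyocyte markers alone, so the estimate there follows cardiomyocyte RNA only. The estimate is the median, over those markers, of class CPM over whole-library CPM. It equals a share of UMIs only where free RNA has the composition of the library. In the 38 erythroid-like Control nuclei, which were not compared, it came to 257%. Estimated free RNA came to 42.6% in CF-KI and 22.2% in Control for fibroblast-like nuclei. It was 16.8% and 10.1% for cardiomyocyte-like nuclei, and 64.2% and 35.8% for macrophage-like nuclei. Endocardial-like nuclei had 55.6% and 28.3%, endothelial-like 39.3% and 43.5%, mesothelial-like 34.6% and 21.1%, and pericyte-like 51.8% and 37.6%.

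Levels are ranked here over the 7 compared classes only, since smaller classes held few nuclei. Among these, laminin RNA was concentrated in fibroblast-like nuclei, which held 2310.5 CPM of laminin chains in CF-KI and 3271 CPM in Control over 2730 and 3500 nuclei. Lamc1 (GRCm38 chromosome 1, 153218922 to 153332786, minus strand) stood at 629 CPM (598 to 660) in CF-KI and 881 CPM (852 to 910) in Control. The next class reached 145 CPM in CF-KI (pericyte-like) and 153 CPM in Control (endothelial-like). Lama2 (chromosome 10, 26980036 to 27619758, minus strand) had 567 and 713 CPM in fibroblast-like nuclei against 286 and 274 CPM in pericyte-like nuclei, the next class in both libraries. Lamb1, the β1 chain that joins Lamc1 in many laminins, had 460.4 and 679.6 CPM, 3.03 and 4.74 times the next class. For Lama4 the fibroblast level was 419 CPM in CF-KI against 613 CPM in Control, 1.74 and 2.15 times the next class. The intervals of these 4 laminin genes lay clear of the next class in both libraries. Lamb2 (chromosome 9, 108479736 to 108490530, plus strand), whose β2 chain is abundant in muscle and vessel basement membranes, was also highest in fibroblast-like nuclei at 214 and 358 CPM. Its CF-KI interval overlapped that of pericyte-like nuclei at 199 CPM.

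Among fibroblast integrins, Itga11, the collagen receptor chain of fibroblasts, had 33.1 CPM in CF-KI against 33.6 CPM in Control, and no other compared class passed 8.51 CPM. Itgb5, whose β5 chain binds vitronectin with αv, was highest in the same nuclei at 135 and 199 CPM, overlapping the 125 CPM of pericyte-like nuclei in CF-KI. Itga5, the fibronectin receptor chain, had 89.7 and 83.6 CPM there and overlapped endocardial-like nuclei at 71.5 and 66.6 CPM. Itga2, a collagen receptor chain, was also highest there, with only 27 and 35 UMIs. Over the 32 genes with at least 20 UMIs across the compared classes in each library, 27 had the same highest class in both libraries, and for 16 of them that class lay clear of the next in both.

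**Figure D1:**
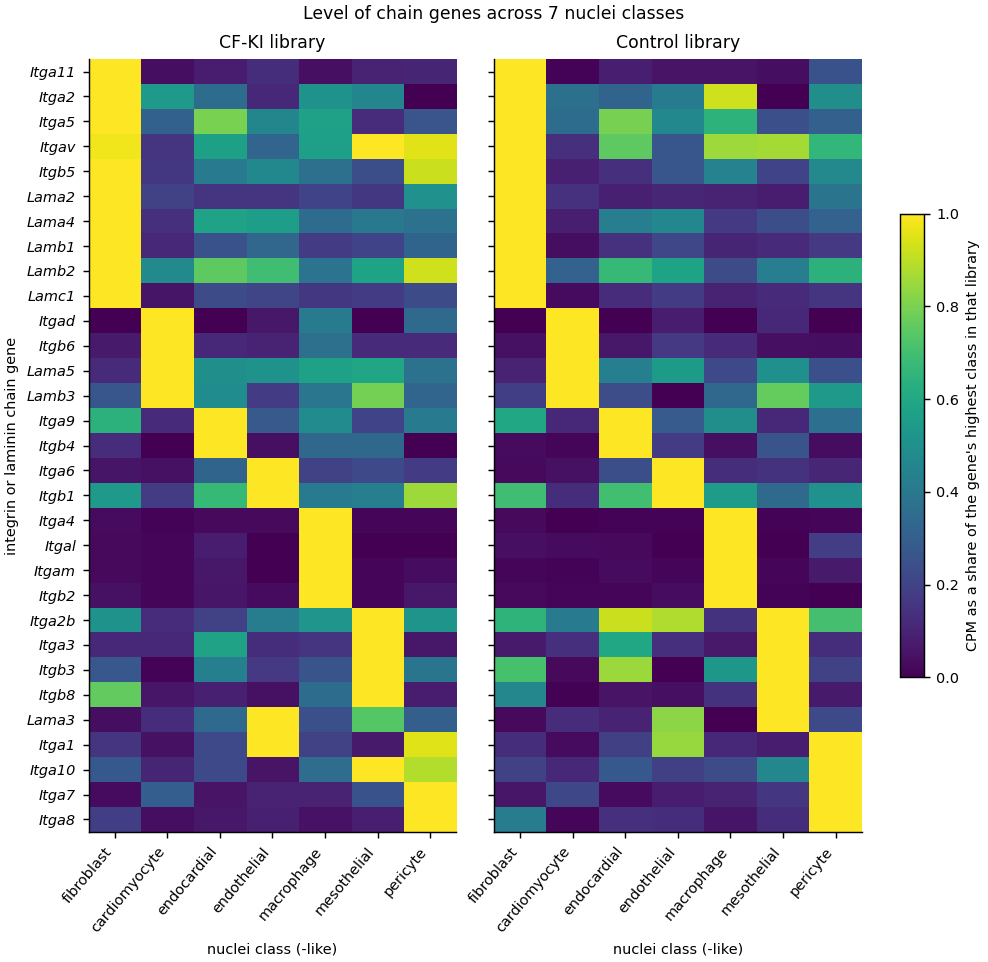
Level of chain genes with at least 20 UMIs in each library across 7 nuclei classes, in CF-KI (left) and Control (right). Colour gives the CPM as a share of that gene's highest class in the same library, and most genes peak in the same class in both. Lama2, Lama4, Lamb1 and Lamc1 peak in fibroblast-like nuclei, and Itga4, Itgal, Itgam and Itgb2 in macrophage-like nuclei.

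The vascular classes were set apart by receptor chains. Itga6, a laminin receptor chain, had 524 CPM in CF-KI against 616 CPM in Control endothelial-like nuclei, against 168 and 147 CPM in endocardial-like nuclei, the next class in both. Itgb1 (chromosome 8, 128685654 to 128733200, plus strand) was highest in endothelial-like nuclei at 725 and 586 CPM and lowest in cardiomyocyte-like nuclei at 125 and 76.2 CPM. In CF-KI its endothelial interval overlapped that of pericyte-like nuclei at 620 CPM (533 to 716). Itga1, the α1 collagen and laminin receptor chain, was high in both endothelial-like nuclei (705 and 688 CPM) and pericyte-like nuclei (670.1 and 812 CPM), whose intervals overlapped in each library. It contains the gene Pelo on the same strand, which had 374 and 468 UMIs over all barcodes, so some reads could belong to either. Pericyte-like nuclei, whose cluster was also led by the smooth muscle gene Myh11, had the highest Itga7, a laminin receptor chain of muscle, at 168 and 221 CPM. Cardiomyocyte-like nuclei followed for Itga7 with 50.6 and 47.7 CPM, clear of the pericyte-like interval. Itga8 peaked in pericyte-like nuclei too, at 57.2 and 46.8 CPM.

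Among the compared classes, endocardial-like nuclei had the highest Itga9, a chain that binds tenascin and emilin, at 81.6 CPM in CF-KI against 117 CPM in Control. They also had the highest Itgb4, the partner of Itga6 in hemidesmosomes, at 43.9 and 64.7 CPM. Both lay clear of the next compared class in both libraries. The class joined 2 clusters, cluster 3 with 1000 and 1052 nuclei and cluster 14 with 53 and 66. Itga9 had 61.8 and 62.2 CPM in cluster 3, and 249 and 420 CPM in cluster 14. Fibroblast-like nuclei, the next class for Itga9, had 52.3 and 69.6 CPM. Itgb4 had 26.7 and 43.6 CPM in cluster 3, and 190 and 183 CPM in cluster 14. The smaller lymphatic endothelial-like class had more Itga9, at 216 and 197 CPM from 30 and 22 UMIs.

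Cardiomyocyte-like nuclei were the highest compared class for Itgb6 and Lama5. Itgb6, the β6 chain known from epithelia, had 54.9 CPM in CF-KI against 58.5 CPM in Control, 2.70 and 6.01 times the next class. Lama5 had 80.4 and 139.8 CPM, against 47.3 CPM in mesothelial-like nuclei of CF-KI and 76.2 CPM in endothelial-like nuclei of Control. The 87 airway epithelial-like nuclei, found in Control alone and not compared, had 181 CPM (127 to 249) of Lama5. Lamb3 (10.3 and 7.89 CPM) and Itgad (9.84 and 11.0 CPM) were also highest in cardiomyocyte-like nuclei among the compared classes, at low counts. The Lamb3 interval overlapped that of mesothelial-like nuclei in both libraries, and the Itgad interval that of macrophage-like nuclei in CF-KI. Itgad overlaps Cox6a2, a muscle cytochrome oxidase gene, on the opposite strand, and Cox6a2 had 16998 and 4430 UMIs over all barcodes. Lamb3 overlaps G0s2 (3840 and 3914 UMIs) and Hsd11b1 (951 and 1225 UMIs), also on the opposite strand. Whether such reads enter the Itgad or Lamb3 count was not tested.

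Among the compared classes, leukocyte integrins marked macrophage-like nuclei sharply. Itga4, the α4 chain that binds fibronectin and Vcam1, had 184 CPM in CF-KI against 232 CPM in Control, against 5.51 and 5.64 CPM in the next class. Itgam, the αM chain of the complement receptor CR3, had 97.6 and 150.2 CPM, and its partner Itgb2 had 106 and 108 CPM. Itgal, the αL chain of LFA-1, had 47.4 and 35.4 CPM. Each of these 4 lay clear of the next class in both libraries. Itgb7 (6 and 30 UMIs) and Itgax (7 and 17 UMIs) were also highest in macrophage-like nuclei, but had under 20 UMIs over the classes in CF-KI. An unnamed cluster, which was not compared, had more Itga4 and Itgb7 than macrophage-like nuclei in Control, as given under the other observations.

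Mesothelial-like nuclei, which cover the heart's surface, were highest for Itga3, the laminin receptor chain of epithelia, at 52.2 and 65.2 CPM, and for Itgb8, which activates latent TGF-β, at 42.4 and 90.6 CPM. Itgb3 (26.1 and 21.7 CPM) and Itga2b (8 and 5 UMIs) peaked there too. Intervals overlapped another class in at least 1 library for all 4. Lamc3, the γ3 chain, had 13 of its 17 CF-KI UMIs and 12 of its 26 Control UMIs in this class.

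Itga1, Itgav, Itga10 and Lama3 were among the genes whose highest class differed between the 2 libraries, with overlapping intervals each time. Itgav, the αv chain of vitronectin receptors, had 106 CPM in mesothelial-like and 103 CPM in fibroblast-like nuclei of CF-KI, and 83.3 and 96.1 CPM in Control. Itgae had 1 and 6 UMIs over the compared classes, and Lama1 and Itgb2l had 0 in both libraries. In fibroblast-like nuclei a count of 0 leaves room for 1.18 CPM in CF-KI, or 0.735 CPM in Control.

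Free RNA bears on several of these levels. For each class, the level that its free RNA would give was computed from the library's own composition. A gene is counted as above that level where the lower end of its interval exceeded it. In macrophage-like nuclei none of the 6 laminin genes reported was above it in both libraries by this measure, though Lama4 (147.7 and 103 CPM against 130.4 and 91.3) and Lama5 had higher values than it. Lamc1 had 103 CPM in CF-KI where free RNA would give 134, and 85.7 CPM in Control where it would give 97.9. The macrophage integrins lay far above it, with Itga4 at 184 CPM against 11.8 in CF-KI. In fibroblast-like nuclei the intervals of 19 of 27 genes exceeded the free RNA level in both libraries, among them Lama2, Lama4, Lamb1, Lamb2 and Lamc1, while those of Itga6 and Lama5 exceeded it in neither. In cardiomyocyte-like nuclei the intervals of 15 of 21 genes exceeded it in both, and Lamc1, at 34.8 and 25.2 CPM against 35.1 and 27.7, exceeded it in neither.

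**Figure D2:**
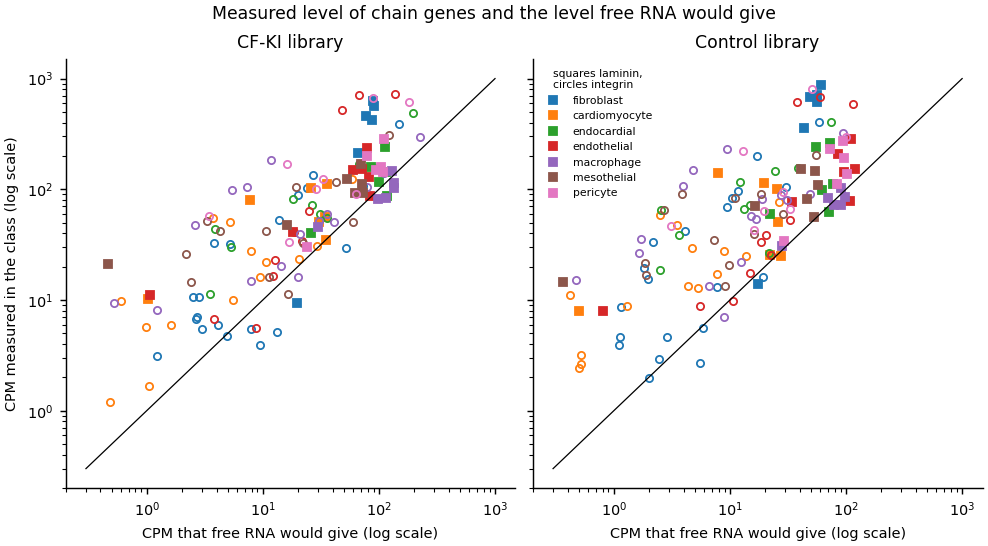
Measured CPM of each reported chain gene in each class (vertical, log scale) against the CPM that the estimated free RNA of that class would give (horizontal, log scale), for CF-KI (left) and Control (right). The line marks equal values: macrophage laminins such as Lamc1 (103 and 134 CPM in CF-KI) lie near or below it, and the fibroblast laminins lie well above it.

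In fibroblast-like nuclei, the class that the Tcf21 driver targets, laminin chains were lower in CF-KI than in Control, while integrin chains went both ways. All 7 laminin genes reported had a log2 ratio (CF-KI over Control) below 0, with a median of -0.55, where the median over all 12404 genes with at least 20 UMIs was -0.0080. The 20 integrin genes had a median of 0.0050, with 10 higher and 10 lower. Among all genes 50.8% were lower. None of the laminin genes passed 2-fold. Of all 27 genes, 1 was at least 2-fold higher and 2 at least 2-fold lower. The same limits were passed by 5% and 2.69% of all genes tested.

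The 5 abundant laminin chains each had lower CPM in CF-KI, and their intervals did not overlap between libraries. The same held for 8.55% of the 12404 genes, and for 31.2% of the 1011 genes with at least 1000 UMIs, as these 5 have, so such a gap was common at this depth. Lamb2 had 214 CPM (196 to 233) in CF-KI and 358 CPM (340.3 to 377) in Control, a log2 ratio of -0.74 (-0.89 to -0.60). Lamb1 had 460.4 and 679.6 CPM, a log2 ratio of -0.56 (-0.66 to -0.46), and Lama4 had 419 and 613 CPM, a ratio of -0.55 (-0.65 to -0.44). For Lamc1 the ratio was -0.49 (-0.57 to -0.40) and for Lama2 it was -0.33 (-0.42 to -0.24). At a mitochondrial limit of 5%, which left 52 CF-KI nuclei, the ratios were -0.070 for Lamb2, -1.09 for Lamb1, -0.98 for Lama4, -0.23 for Lamc1 and -0.56 for Lama2. The rarer Lama5 (24 and 57 UMIs; -0.55, -1.32 to 0.15) had an interval that held 0, and a ratio of 1.72 at that limit. The 8 fibroblast markers used for naming, all detected in both libraries, summed to 13824 CPM in CF-KI against 19908 CPM in Control, also lower. The 8 cardiomyocyte markers summed to 10738 and 4173 CPM. They also gave the free RNA estimate, so their sum is not a separate observation.

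**Figure D3:**
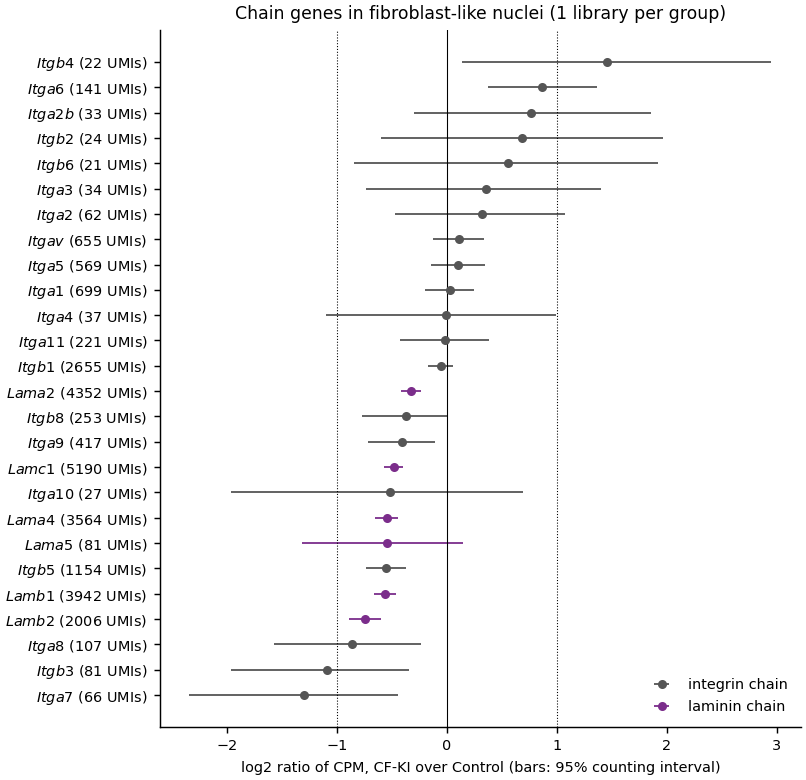
Log2 ratio of CPM, CF-KI over Control, for chain genes reported in fibroblast-like nuclei, with 95% counting intervals and the UMIs of both libraries beside each name. Dotted lines mark 2-fold. Laminin chains (purple) lie below 0, from -0.74 for Lamb2 to -0.33 for Lama2, and integrin chains (grey) lie on both sides.

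The β1 and β2 laminin genes shared this direction, and the stretches around their start sites are shown here because they lie on different chromosomes and differ in composition. Each runs from 250 bases before to 50 bases after the start of the RefSeq transcript on GRCm38.p6. Itgam, the macrophage gene, is shown for contrast. Capitals mark GAGGAA, the purine-rich core bound by Ets factors, and GGGCGG, the GC box bound by Sp factors, on either strand (so also TTCCTC and CCGCCC).
Lamb1, chr12:31265043-31265342, plus strand: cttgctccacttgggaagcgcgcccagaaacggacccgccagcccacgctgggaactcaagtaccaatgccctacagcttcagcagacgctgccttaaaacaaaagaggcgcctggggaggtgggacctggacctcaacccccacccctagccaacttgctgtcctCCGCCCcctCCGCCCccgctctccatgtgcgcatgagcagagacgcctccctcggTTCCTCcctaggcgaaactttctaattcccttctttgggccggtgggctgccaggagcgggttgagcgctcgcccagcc
Lamb2, chr9:108479612-108479911, plus strand: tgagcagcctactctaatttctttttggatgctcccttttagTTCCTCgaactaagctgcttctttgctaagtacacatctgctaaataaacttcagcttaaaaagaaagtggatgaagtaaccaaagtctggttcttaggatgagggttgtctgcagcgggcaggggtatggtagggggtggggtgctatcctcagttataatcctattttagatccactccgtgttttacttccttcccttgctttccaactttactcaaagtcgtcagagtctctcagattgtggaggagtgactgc
Itgam, chr7:128062390-128062689, plus strand: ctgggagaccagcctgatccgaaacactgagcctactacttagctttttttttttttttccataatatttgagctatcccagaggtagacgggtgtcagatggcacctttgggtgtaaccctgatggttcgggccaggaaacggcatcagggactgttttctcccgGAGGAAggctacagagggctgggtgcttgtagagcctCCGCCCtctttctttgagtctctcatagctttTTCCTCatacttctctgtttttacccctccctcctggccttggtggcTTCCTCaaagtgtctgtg
The Itgam stretch holds 3 GAGGAA matches and 1 GC box, that of Lamb1 holds 1 and 2, and that of Lamb2 holds 1 and 0. GAGGAA occurs in 28.3% of the 32851 RefSeq promoter stretches of this length and in 15 of the 27 that were found for 24 of the chain genes. The GC box occurs in 35.7% of all and in 12 of those 27. A match describes the letters only.

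Fibroblast-like nuclei fell into 3 clusters whose mix differed between the libraries. Cluster 1, of low depth and with 3 of the 8 fibroblast markers raised, held 64.5% of CF-KI and 38.5% of Control fibroblast-like nuclei. Cluster 2, led by Cilp and Mfap4, held 20.7% and 47.5%. Cluster 7, led by Cd248 and Pi16, held 14.8% and 14.0%. Estimated free RNA was 52.6% and 28.5% in cluster 1, 32.3% and 19.2% in cluster 2, and 29.4% and 19.6% in cluster 7.

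Within clusters 2 and 7 all 5 abundant laminin chains were lower in CF-KI, with medians of -0.44 and -0.40. Lamb2 had 275 and 398 CPM in cluster 2, a log2 ratio of -0.53 (-0.76 to -0.31), and 297 and 459.8 CPM in cluster 7, a ratio of -0.63 (-0.91 to -0.35). Lama4 had 479.9 and 699 CPM in cluster 2, a ratio of -0.54 (-0.71 to -0.37). The smallest ratio there was that of Lama2 in cluster 2, at -0.14 (-0.28 to -0.01). In cluster 1 the laminin levels were lower in both libraries and mostly alike: Lama2 had 452 and 419.9 CPM (0.11, -0.07 to 0.29), Lamb1 had -0.03 (-0.23 to 0.17) and Lamc1 -0.07 (-0.25 to 0.12). Lamb2 alone had an interval below 0 in cluster 1, at -0.53 (-0.82 to -0.25). With the clusters weighted as in Control, an alternative chosen after seeing the data, the class ratios were -0.55 for Lamb2, -0.43 for Lama4, -0.37 for Lamb1, -0.28 for Lamc1 and -0.13 for Lama2. With estimated free RNA subtracted they were -0.65, -0.30, -0.28, -0.16 and -0.02 in the same order.

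**Figure D4:**
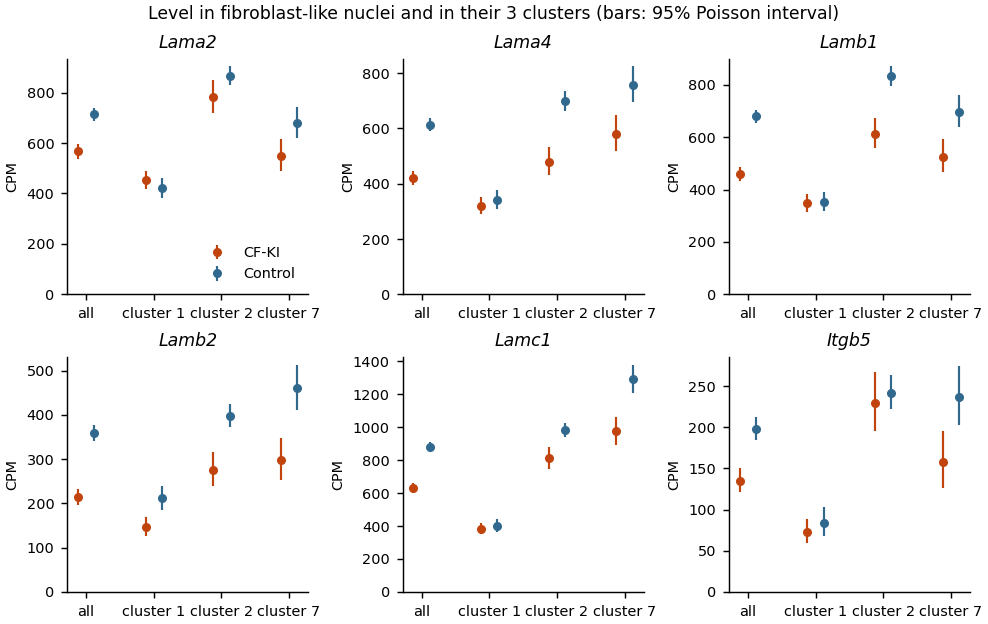
CPM of 5 laminin chains and Itgb5 in all fibroblast-like nuclei and in their 3 clusters, CF-KI in orange and Control in blue, with 95% Poisson intervals. In clusters 2 and 7 the CF-KI laminin points lie below Control (Lama4 479.9 and 699 CPM in cluster 2), and in cluster 1 the points of Lama2, Lama4, Lamb1 and Lamc1 lie close together.

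Of the fibroblast integrins, the β1 chain hardly differed: Itgb1 had 391 CPM (367 to 416) in CF-KI and 407 CPM (388 to 427) in Control, a log2 ratio of -0.06 (-0.17 to 0.06). Itgb5 was lower, at 135 and 199 CPM and a ratio of -0.55 (-0.74 to -0.37). Its ratio was -0.58 in cluster 7 and -0.07 in cluster 2, and -0.18 with clusters weighted as in Control, and it was 0.74 at a mitochondrial limit of 5%. The collagen and fibronectin receptor chains were close between libraries, with Itga1 at 107 and 105 CPM, Itga11 at 33.1 and 33.6 CPM and Itga5 at 89.7 and 83.6 CPM (0.10, -0.15 to 0.35). Itgav had a ratio of 0.11 (-0.12 to 0.34). Itga8, a chain of mesenchymal cells, had 27 and 80 UMIs and a ratio of -0.87 (-1.57 to -0.24). Itga6 had the highest ratio above 100 UMIs, at 29.5 and 16.2 CPM (0.87, 0.37 to 1.37), and both levels lay under what free RNA would give (52.1 and 19.4 CPM).

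The 3 genes past 2-fold rested on few UMIs. Itga7 had 13 and 53 UMIs, with a log2 ratio of -1.30 (-2.34 to -0.45). Itgb3, the β chain of vitronectin and platelet receptors, had 18 and 63 UMIs, a ratio of -1.10 (-1.97 to -0.35). Itgb4 had 14 and 8 UMIs, a ratio of 1.45 (0.14 to 2.95), and stood just inside the minimum of 20 UMIs, as did Itgb6 with 21, while Itgam with 14 and Lamb3 with 13 were just outside it. At a mitochondrial limit of 5%, which left 52 CF-KI fibroblast-like nuclei, Itga7, Itgb3 and Itga8 had ratios of 0.34, 1.98 and 1.75, with intervals that held 0.

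The laminins' partners in the basement membrane were lower with them in fibroblast-like nuclei. Of 15 such genes reported, 13 were lower and 2 higher, with a median of -0.52, where 50.8% of all genes were lower. Col4a6, a collagen IV chain, was the lowest (19 and 81 UMIs; -1.38, -2.21 to -0.68), followed by agrin, Agrn (-0.88, -1.41 to -0.40), which clusters receptors at basement membranes. Col4a2 (0.08, -0.05 to 0.22) and Ntn4 (0.09, -0.21 to 0.38) were the highest. The dystroglycan complex, the other main laminin receptor, had 10 genes higher and 9 lower, from Pomt2 (-0.81) and Pomt1 (-0.60), which glycosylate dystroglycan, as the lowest above 100 UMIs to Bcam (0.21) among the highest. Its muscle member Sgca (1.04) was past 2-fold higher.

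Integrin adaptors had 14 genes higher and 7 lower in fibroblast-like nuclei, with a median of 0.13, where 49.2% of all genes were higher. Bcar1 (-0.32) and Tns2 (-0.31) were the lowest, and Itgb1bp1 (0.62) and Itgb1bp2 (1.22, 0.69 to 1.76) the highest. Itgb1bp2 encodes melusin, a muscle protein that binds the β1 chain. Of other integrin ligands, 5 were higher and 9 lower. Emilin1 (-0.62, -0.79 to -0.46) and Vcam1 (-0.43, -0.60 to -0.26) were the lowest, and Icam2 (0.82) and fibrillin-1, Fbn1 (0.13), the highest. The part of free RNA and of the cluster mix was not tested in these partner values, nor in those of the classes below.

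Cardiomyocyte-like nuclei, which formed 1 cluster of 2337 and 2210 nuclei, had more Itgb1 and Lamb1 and less Lama5 in CF-KI. Itgb1 had 125 CPM (114 to 136) in CF-KI and 76.2 CPM (69.2 to 83.7) in Control, a log2 ratio of 0.71 (0.52 to 0.90). Lama5 had 80.4 CPM (72.0 to 89.5) and 139.8 CPM (130.3 to 149.9), a ratio of -0.80 (-0.99 to -0.61). The intervals did not overlap for either gene, as for 17.2% of the 12014 genes in the higher and 7.6% in the lower direction. Over the alternatives Itgb1 ranged from 0.31 with at least 500 genes per nucleus to 1.15 without a mitochondrial limit, and Lama5 from -0.95 to -0.71.

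Lamb1 had 50.6 and 25.4 CPM in these nuclei, a log2 ratio of 0.99 (0.68 to 1.31). Free RNA would give 30.4 CPM in CF-KI against 22.3 CPM in Control, and the ratio was 2.78 after subtraction, where Control was left with 3.46 CPM. Lamc1 had 34.8 and 25.2 CPM, a ratio of 0.46 (0.12 to 0.81), at or under the free RNA level in both libraries. Lama2, the muscle laminin chain, was close between libraries at 111 and 101 CPM (0.13, -0.05 to 0.31), as was Lamb2 at 103 and 113 CPM (-0.14, -0.32 to 0.04). Among receptor chains, Itga7 had 50.6 and 47.7 CPM (0.09, -0.18 to 0.35) and Itgb6 54.9 and 58.5 CPM (-0.09, -0.34 to 0.16). Itga9 (-0.41, -0.9997 to 0.14) and Itga6 (-0.22, -0.61 to 0.15) were the lowest integrins above 100 UMIs. The single gene past 2-fold, Itga10, had 5 and 15 UMIs (-1.04, -2.95 to 0.40). So 0 of 21 genes were 2-fold higher and 1 was 2-fold lower, where 9.91% and 2.08% of 12014 genes were. The median of the 21 genes was 0.09, below the 0.15 of all genes, and TMM scaling shifts every ratio of this class by -0.139, which takes those of Itga7 and Lama2 below 0.

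Basement membrane partners in cardiomyocyte-like nuclei had a median of 0.45, with 11 of 16 higher, where 61.4% of all genes were higher. Sparc (379 and 226 UMIs; 1.198, 0.96 to 1.44) and Nid1 (1.09, 0.75 to 1.44), a linker of laminin to collagen IV, were the highest, and Agrn (-0.51) and Col4a5 (-0.31) the lowest. Other integrin ligands had a median of 0.77, with 13 of 14 higher. Fbn1 (1.43) and Icam2 (1.33), a fibroblast and an endothelial gene by their usual expression, led those above 100 UMIs, and Ccn1 (-0.52) and Ccn2 (0.22), matricellular genes, were at the other end. The 8 fibroblast markers summed to 1043 CPM in CF-KI against 474 CPM in Control in this class. The dystroglycan complex had a median of 0.06, which the TMM shift takes below 0. Dystroglycan itself, Dag1, was its highest gene above 100 UMIs at 0.59 (0.44 to 0.74), and Pomt2 (-0.32, -0.91 to 0.24) was among the lowest. Among adaptors Pxn, paxillin (-0.91, -1.21 to -0.63), and tensin-1, Tns1 (2312 and 4874 UMIs; -0.62, -0.69 to -0.55), were the lowest, and Zyx (0.57) and talin-1, Tln1 (0.43), the highest.

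Endothelial-like nuclei had more Itgb1 and less Lama5, Lamb2, Lama4 and Itga6 in CF-KI. Itgb1 had 725 CPM (685 to 768) and 586 CPM (542 to 633), a log2 ratio of 0.31 (0.17 to 0.45). Lama5, the α5 chain of mature vessel walls, had 41.2 CPM (31.95 to 52.4) and 76.2 CPM (60.9 to 94.1), a ratio of -0.88 (-1.37 to -0.41). Lamb2 had a ratio of -0.49 (-0.75 to -0.22), Lama4 of -0.29 (-0.50 to -0.07) and Itga6 of -0.23 (-0.38 to -0.09), while Lamc1 had -0.23 (-0.53 to 0.07). Itgb5 (0.25, -0.22 to 0.74) and Lama2 (0.14) were the other highest genes above 100 UMIs. No gene of 17 passed 2-fold, where 2.36% of 10155 genes were higher and 4.28% lower. The 8 pericyte markers summed to 4193 CPM in CF-KI against 2662 CPM in Control in this class. The part of pericyte RNA in these ratios was not tested.

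This class joined cluster 4, led by Cxcl12 and Rgcc, with 72.8% of CF-KI and 46.1% of Control nuclei, and cluster 8, led by Ccdc85a and Mcf2l. Cluster 8 had estimated free RNA of 79.2% and 64.8%, against 32.3% and 27.6% in cluster 4. Within cluster 4 Itgb1 had 765 and 747 CPM, a ratio of 0.03 (-0.12 to 0.19), and within cluster 8 it had 532 and 327 CPM, a ratio of 0.70 (0.36 to 1.05). Itga6 was lower within cluster 4 at -0.39 (-0.56 to -0.23), and Lamb2 at -0.55 (-0.87 to -0.23). Without a mitochondrial limit the class held 402 and 435 nuclei, against 1251 and 900 with it, so the set of nuclei differed. Lama5 then had a ratio of 0.09 with an interval that held 0.

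Among all endothelial genes 55.2% were lower, and of the basement membrane partners 9 of 14, with a median of -0.29. Agrn (-1.20, -1.66 to -0.77) and perlecan, Hspg2 (-0.69, -0.84 to -0.55), were the lowest, and Col4a2 (0.41, 0.27 to 0.54) and Smoc2 (0.22) the highest. Of the dystroglycan complex 11 of 17 were lower, from Bcam (-0.59), a receptor for the α5 laminin chain, and Dmd (-0.43) to Sspn (0.39) and Sgce (0.06). Adaptors ran from Pxn (-0.72) and Lims2 (-0.59) to Parva (0.56) and Vcl (0.45), and other ligands from Emilin1 (-0.67) and Icam2 (-0.49) to Ccn2 (0.26) and Icam1 (0.26). The medians of these last 2 lists were 0.01 and -0.07, beside -0.06 for all genes.

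Endocardial-like nuclei had more Itgb5 and less Lamb2 in CF-KI. Itgb5 had 55.2 CPM (40.1 to 74.1) in CF-KI and 26.8 CPM (18.0 to 38.5) in Control from 44 and 29 UMIs, a log2 ratio of 1.03 (0.33 to 1.77), where free RNA would give 35.5 and 21.7 CPM. Lamb2 had 161 CPM (134 to 191) and 239 CPM (211 to 271), a ratio of -0.57 (-0.89 to -0.27). Itgb4 (-0.55, -1.19 to 0.05) and Itga9 (-0.51, -0.97 to -0.07) were the next lowest above 100 UMIs, and Itga9 had -0.02 with free RNA subtracted. Within cluster 3 Itga9 had a ratio of -0.0051 (-0.61 to 0.58). Within the small cluster 14 it had -0.73 (-1.53 to -0.03) from 21 and 69 UMIs. Itgb1 stood at 487 and 408 CPM (0.26, 0.06 to 0.46). Lama2 (0.48), Lamc1 (0.36, -0.03 to 0.74) and Itgb1 were the highest of those above 100 UMIs. Of 16 genes, 1 was 2-fold higher and 0 lower, against 6.31% and 3.46% of 9666 genes.

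Among endocardial partners, fibronectin, Fn1, had the lowest ratio above 100 UMIs: it had 133 and 392 UMIs, a ratio of -1.11 (-1.41 to -0.83), followed by Emilin1 (-0.65), with Fbn1 (0.50) and Ccn1 (0.34) at the other end. Basement membrane partners ran from Agrn (-0.51) and Hspg2 (-0.40) to Smoc2 (1.13, 0.62 to 1.66) and Col4a2 (0.70), with 7 of 15 higher. In this class 48.1% of all genes were higher. Bcam (-0.78) and Sntb2 (-0.46) were the lowest dystroglycan complex genes and Dag1 (0.55) and Sgcd (0.23) the highest. Among adaptors Bcar1 (-0.52) and Lims2 (-0.49) were the lowest and Vcl (0.51) and Tln1 (0.37) the highest.

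Macrophage-like nuclei had lower Itgam and Itga4 in CF-KI, and 5 of 6 laminin chains were higher, where 49.2% of all genes were. Itgam had 97.6 CPM (76.3 to 123) in CF-KI and 150.2 CPM (129 to 175) in Control, a log2 ratio of -0.62 (-1.04 to -0.22), and Itga4 had -0.33 (-0.64 to -0.03). Itgb2, the partner of Itgam, stood at 106 and 108 CPM (-0.03, -0.46 to 0.39). The 9 macrophage markers, all detected, summed to 3787 CPM in CF-KI against 8855 CPM in Control, and the 8 cardiomyocyte markers to 15646 and 7005 CPM. The latter also gave the free RNA estimate. With free RNA subtracted Itgam had a ratio of 0.19 and Itga4 of 0.47. The part of free RNA in these differences beyond that subtraction was not tested.

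Itgb5 was the lowest macrophage gene above 100 UMIs, at 50.1 and 88.4 CPM (-0.81, -1.40 to -0.26). Lama2 (0.67, 0.21 to 1.13), Itga1 (0.62, 0.21 to 1.02) and Lama4 (0.52, 0.13 to 0.90) were the highest, and Lamc1 had 0.27 (-0.19 to 0.71). The intervals of Lama2, Lama4 and Lamc1 did not exceed the free RNA level in either library. Itgb1 had 299.5 and 321 CPM (-0.10, -0.35 to 0.15). Past 2-fold were Itgb7, the β7 chain of lymphocyte receptors (6 and 30 UMIs; -1.61, -3.26 to -0.42), and Itgb6 (15 and 8 UMIs; 1.48, 0.19 to 2.97), and the interval of Itgb6 did not exceed its free RNA level. This is 1 of 22 in each direction, against 5.75% higher and 5.5% lower among 9996 genes.

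In the macrophage-like class the adaptor kindlin-3, Fermt3, which activates leukocyte integrins, had 63 and 285 UMIs, a ratio of -1.55 (-1.98 to -1.16). Parvb (-0.34) followed, and kindlin-2, Fermt2 (0.89), and Vcl (0.73) were the highest. The dystroglycan complex had 13 of 17 genes higher and a median of 0.57, led by the muscle gene Dmd (271 and 133 UMIs; 1.64, 1.34 to 1.95) and Sgcd (1.18), with Sgce (-0.69) and Sntb2 (0.19) at the other end. Basement membrane partners ran from Sparc (0.05) and Hspg2 (0.31) to Col4a2 (0.82) and Smoc2 (0.80), with 11 of 15 higher. In this class 49.2% of all genes were higher. Other ligands ran from Tgfb1 (-0.72, -1.18 to -0.29) and Ccn2 (-0.39) to Vcam1 (0.65) and Fn1 (0.33). Estimated free RNA was 64.2% in CF-KI and 35.8% in Control in this class, and its part in these partner values was not tested.

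Mesothelial-like nuclei, 1 cluster of 511 and 642 nuclei, had more Itgb1 and Lama2 and less Itgb8 in CF-KI. Itgb1 had 311 CPM (269 to 359) and 203 CPM (173 to 236), a log2 ratio of 0.62 (0.31 to 0.93). Itgb8 had 42.4 CPM (27.7 to 62.1) and 90.6 CPM (71.2 to 114) from 26 and 75 UMIs, a ratio of -1.08 (-1.80 to -0.43). At a mitochondrial limit of 5%, with 78 CF-KI nuclei, Itgb8 had a ratio of 0.33 with an interval that held 0. Lama2 had 92.9 and 56.8 CPM (0.71, 0.13 to 1.30), where free RNA would give 73.3 and 52.8 CPM. Itga6 (0.35, -0.14 to 0.84) was the other highest gene above 100 UMIs, and Lamb2 (-0.30) and Lamc1 (0.02, -0.46 to 0.48) the next lowest. Of 19 genes, 0 were 2-fold higher and 1 lower, against 6.52% and 3.67% of 8845 genes.

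The mesothelial partner lists had medians from -0.0031 to 0.12, beside 0.04 for all genes. Dag1 (0.82, 0.42 to 1.24), Tln1 (0.50) and Tns3 (0.42) were high, as were the ligands Fn1 (0.46) and Fbn1 (0.35), the only 2 of their list above 100 UMIs. Parvb (-0.77, -1.16 to -0.41), Bcam (-0.56), Tns2 (-0.54) and Sntb2 (-0.48) were low, and Dmd stood at -0.05. Basement membrane partners ran from Hspg2 (-0.32) and Col4a4 (-0.21) to Smoc2 (0.40) and Nid1 (0.16).

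Pericyte-like nuclei showed the highest Itgb1 ratio of the 7 classes. Itgb1 had 620 CPM (533 to 716) in CF-KI and 296 CPM (249 to 349) in Control from 184 and 139 UMIs, a log2 ratio of 1.07 (0.74 to 1.40). It was 0.94 under TMM scaling, 0.69 without a mitochondrial limit and 0.57 with at least 500 genes per nucleus, each under 2-fold. Higher values came with separate clustering (1.23) and with free RNA subtracted (1.53). In this class the 8 endothelial markers summed to 1771 CPM in CF-KI and 685 in Control, the 8 cardiomyocyte markers to 12587 and 8546, and the 8 pericyte markers to 10759 and 7795, all detected in both. The cardiomyocyte markers also gave the free RNA estimate of this class. The part of these markers in the Itgb1 ratio was not tested. Itga1, an α chain that pairs with Itgb1, had 670.1 and 812 CPM (-0.28, -0.53 to -0.03). Itga7 (-0.39, -0.91 to 0.11) and Lama4 (-0.28) were also among the lowest above 100 UMIs, and Lamc1 (0.09, -0.50 to 0.67) and Lama2 (0.06) followed Itgb1 among the highest above that minimum. Of 14 genes, 1 was 2-fold higher and 0 lower, against 12.9% and 4.43% of 6180 genes. TMM scaling shifts every ratio of this class by -0.129.

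Among pericyte partners, all 11 other integrin ligands had ratios above 0, where 57.5% of all genes did. Their median was 0.56 where all genes had 0.13. Ccn2 (0.92, 0.43 to 1.42) and Mfge8 (0.82) led them, and Vtn (0.17), vitronectin, and Fn1 (0.31) were the lowest above 100 UMIs. Dag1 was past 2-fold higher (71 and 54 UMIs; 1.05, 0.53 to 1.60), and Utrn (-0.38) and Dmd (-0.17) were lower. Col4a2 (0.74) and Sparc (0.55) were the highest basement membrane partners and Nid1 (0.10) and Col4a1 (0.26) the lowest. Among adaptors Tln1 (0.62) and Lims1 (0.32) were high and Tns2 (-0.58) and Vcl (-0.12) low.

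Set side by side across the 7 classes, Lamb2 had ratios below 0 throughout, and Itgb1 had ratios above 0 in most. Itgb1 had a ratio and interval above 0 in 5 classes, and ratios of -0.06 and -0.10 in fibroblast-like and macrophage-like nuclei. Lamb2 had a ratio below 0 in all 7, from -0.74 in fibroblast-like to -0.04 in macrophage-like nuclei. Its interval lay below 0 in only 3 of them: fibroblast-like, endocardial-like and endothelial-like nuclei. Lama5 was below 0 in 6 classes, with its interval below 0 in 2, and at 0.58 (-0.15 to 1.30) in macrophage-like nuclei. Lama2 and Lamb1 were below 0 in fibroblast-like nuclei alone and above 0 in the other 6, and Lamc1 was above 0 in 5. TMM scaling takes Lama2 below 0 in cardiomyocyte-like and pericyte-like nuclei, and Lamc1 in mesothelial-like and pericyte-like nuclei. The classes of a library share its free RNA and its depth, so these values are not independent of each other. How often all genes keep 1 sign over as many classes was not tested.

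**Figure D5:**
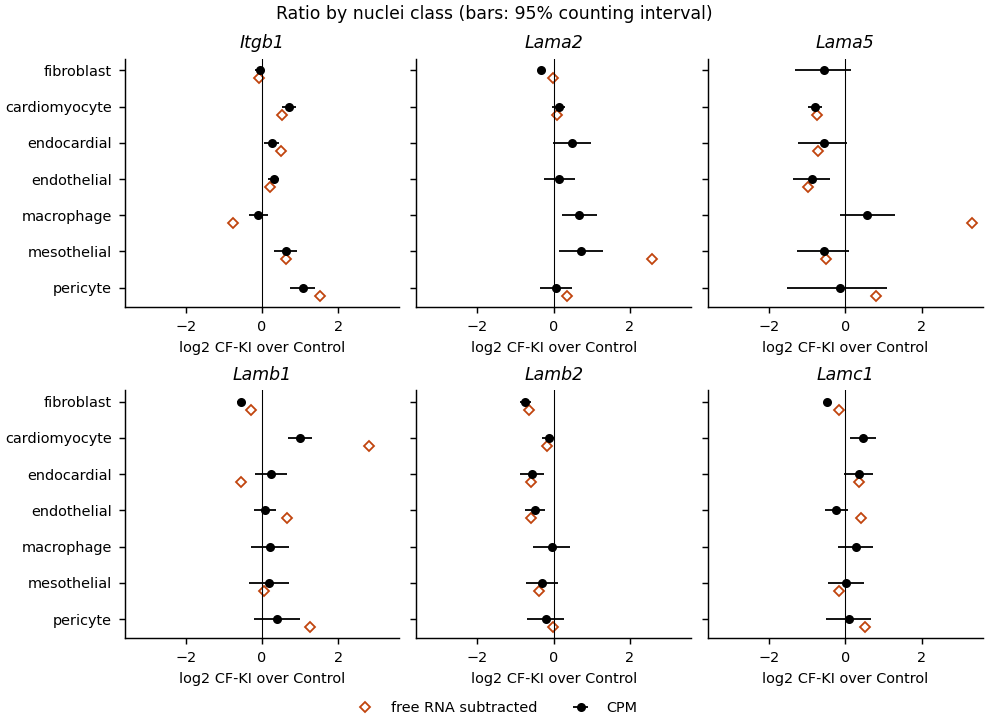
Log2 ratio of CPM, CF-KI over Control, for 6 chain genes in 7 nuclei classes (black, bars are 95% counting intervals), with the ratio after subtraction of estimated free RNA (open diamonds, absent where a library was left at 0). Lamb2 lies below 0 in every class before subtraction, from -0.74 to -0.04, with bars clear of 0 in 3 classes. Itgb1 reaches 1.07 in pericyte-like nuclei.

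Nuclear RNA holds unspliced transcripts, so long genes can gain reads from their introns. The 10 chain genes reported in fibroblast-like nuclei that span at least 100 kb had a median log2 ratio of -0.37, where all 1697 genes of that length had 0.0018. The 10 chain genes of 10 to 50 kb, Lamb2 among them, had a median of 0.02, where all 5706 such genes had -0.02.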

How the data were processed

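The deposited files held UMI counts per gene and barcode for 1 CF-KI and 1 Control library of nuclear RNA, made by the authors with Cell Ranger 6.1.1 on mm10 per the submitters' processing notes. Whether intronic reads were counted is not given in the sources used here. The genes and lists were chosen with earlier results of these data known.

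Kept barcodes had 200 or more genes and no more than 20% mitochondrial counts, and Scrublet doublet calls were removed. Both libraries were clustered together with scanpy 1.11.5 (2000 variable genes, 30 components, 15 neighbours, Leiden resolution 0.8), leaving out the chain and partner genes. Clusters were named from marker lists where at least 3 markers were raised. Counts were summed per class and library and given as CPM of non-mitochondrial UMIs with exact Poisson intervals. Ratios had 0.5 added to each count, with conditional exact binomial intervals, and both cover counting error only. With 1 library per group no test was made, and past 2-fold at 20 UMIs or more over both libraries served as the call. Classes needed 100 nuclei in each library.

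Free RNA was estimated from the 8 cardiomyocyte markers, or in cardiomyocyte-like nuclei from the markers of the other lists, and the whole-library profile. Partner lists held 19 basement membrane, 20 dystroglycan complex, 24 adaptor and 18 other ligand genes. Named were chain genes past 2-fold, the 3 highest and 3 lowest with at least 100 UMIs, Itgb1 and Lamc1 in each class, and the 2 highest and 2 lowest partners per list. Some genes that the rule names are not reported here. Other chain genes named in fibroblast-like and cardiomyocyte-like nuclei, and Sgca, were chosen after their values were seen. Gene positions came from GENCODE vM21 (GRCm38) and matched 99.7% of features and all 38 chain genes. The ratio code was tested on simulated data. Alternatives were 2 mitochondrial limits, 500 genes, doublets kept, 2 resolutions, separate clustering, TMM (edgeR 4.0.16) and median-of-ratios (DESeq2 1.42.0) scaling of the class sums, free RNA subtracted, a minimum of 100 UMIs and cluster weighting.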

Additional observations from a re-analysis of the deposited data

Results flagged for a closer look

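Some chain genes had a log2 ratio of CF-KI over Control with a counting interval above 0 in 1 class and below 0 in another. How common this was among all genes was not tested. The difference between classes was not tested, since each group had 1 library. Itga1 had 0.62 in macrophage-like and -0.28 in pericyte-like nuclei. Itga6 had 0.87 in fibroblast-like nuclei, where its level lay under that of free RNA, and -0.23 in endothelial-like nuclei. Itgb5 had 1.03 in endocardial-like and -0.81 in macrophage-like nuclei. The others were laminin chains with the low value in fibroblast-like nuclei, and for Lama2, Lama4 and Lamc1 the interval of the level behind the high value did not exceed that of free RNA in either library. Lama2 had 0.71 in mesothelial-like and -0.33 in fibroblast-like nuclei. Lama4 had 0.52 in macrophage-like and -0.55 in fibroblast-like nuclei. Lamb1 had 0.99 in cardiomyocyte-like and -0.56 in fibroblast-like nuclei, and Lamc1 had 0.46 and -0.49 in the same classes.

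In a class too small for the comparison, lymphatic endothelial-like nuclei, Itgb1 stood at 677 CPM in CF-KI and 386 CPM in Control.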

How the results depend on the processing

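No paired analysis was possible because each group had 1 library. Over 12 alternatives, class summaries stayed close to their value in 124 combinations and moved in 32. For the 54 values of single genes named by the rule, 496 combinations gave a ratio inside the reported interval and 50 gave one outside it. In 6 the sign changed where the main interval excluded 0; sign changes of genes whose interval held 0, or that the rule does not name, are not among these. Weighting clusters as in Control was chosen after seeing the data and applies to the 4 classes with more than 1 cluster. The 5% mitochondrial limit gave no value for endocardial-like, macrophage-like and pericyte-like nuclei, which had under 50 nuclei in a library. The minimum of 100 UMIs was not run for single genes.

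The number of chain genes past 2-fold was 3 in fibroblast-like, 1 in cardiomyocyte-like, 1 in endocardial-like, 0 in endothelial-like, 2 in macrophage-like, 1 in mesothelial-like and 1 in pericyte-like nuclei. With free RNA subtracted it was 8, 5, 2, 2, 10, 3 and 3 in that order. The fibroblast-like and macrophage-like counts include genes left at 0 CPM in both libraries. Their ratios come only from the amount added to each count and the unequal totals. Itga6 and Lama5 in fibroblast-like nuclei so had 1.12, and Lama2 in macrophage-like nuclei 1.46. The larger counts in these classes therefore do not by themselves show more changed chain genes. The pericyte-like count was 0 under TMM scaling, median-of-ratios scaling, Leiden resolution 1.5, doublets kept, a minimum of 500 genes and no mitochondrial limit, and 2 with separate clustering. A minimum of 500 genes also gave 0 in cardiomyocyte-like, endocardial-like and mesothelial-like nuclei. A minimum of 100 UMIs gave 0 in fibroblast-like, cardiomyocyte-like, endocardial-like and macrophage-like nuclei. Without a mitochondrial limit the count was 5 in cardiomyocyte-like, 1 in endothelial-like and 0 in mesothelial-like nuclei. At the 5% limit it was 5 in fibroblast-like, 0 in cardiomyocyte-like and 2 in mesothelial-like nuclei. Separate clustering gave 2 in endocardial-like and 0 in mesothelial-like nuclei, and cluster weighting gave 0 in endocardial-like nuclei.

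The fibroblast-like median of -0.06 was -0.37 at a minimum of 100 UMIs, where fewer genes enter, and 0.30 at the 5% limit, where 52 CF-KI nuclei remain. At that limit the sign changed, among genes so counted, for Itga7 (0.34), Itga8 (1.75) and Itgb3 (1.98) in fibroblast-like nuclei and for Itgb8 (0.33) in mesothelial-like nuclei. Outside that count it changed, among others, for Itgb5 (0.74) and Lama5 (1.72) in fibroblast-like nuclei. It also changed for Itgam in macrophage-like nuclei with free RNA subtracted (0.19; Itga4, not so counted, had 0.47) and for Lama5 in endothelial-like nuclei without a limit (0.087). Without that limit the endothelial-like class held 402 and 435 nuclei, against 1251 and 900 with it. Apart from the number of nuclei and genes, the cause was not tested. Depth limits the rarer chains: of 9 values past 2-fold, 7 rested on under 100 UMIs.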

Other observations

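Classes with under 100 nuclei in a library were not compared, but some held high levels of chain genes. Lymphatic endothelial-like nuclei had Lama4 at 605 CPM (483 to 749) in CF-KI and 825 CPM (665 to 1012) in Control, and Itga9, known for its part in lymphatic valves, at 216 and 197 CPM. Adipocyte-like nuclei had Lama4 at 321 and 428 CPM. The 62 platelet-like barcodes of CF-KI held Itga2b, the αIIb chain of the platelet fibrinogen receptor, at 442 CPM (298 to 630) from 30 UMIs, and its partner Itgb3 at 132 CPM (60.6 to 252) from 9 UMIs. An unnamed cluster led by immunoglobulin and cytotoxic genes had Itga4 at 469 CPM and Itgb7 at 119 CPM in Control.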
